A study of Mus musculus with 8 samples.

Results

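Deptor and the genes of the mTOR complexes were followed in nuclear RNA of cortical GABAergic neurons, the inhibitory neurons of the cortex, from juvenile mice made hypothyroid before birth. The set holds 10 genes of the 55341 gene symbols counted: Deptor, the other main subunits of mTORC1 and mTORC2 (Mtor, Rptor, Rictor, Mlst8, Akt1s1 and Mapkap1), and the regulators Tsc1, Tsc2 and Rheb. Deptor was selected on its CPM difference between the groups in these libraries, and the other 9 genes were added for their known place in the complexes. The difference between the groups is therefore given for these genes as a description, with no test. All 10 genes passed the filter on low counts.

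Both groups carried the same Cre-dependent reporter, which gives GABAergic neurons a fluorescent nucleus, and both were exposed to propylthiouracil (PTU), a blocker of thyroid hormone synthesis, through treatment of the pregnant mothers. The PTU group (mice 9, 10, 11 and 12) received nothing more, and the PTU+TH group (mice 13, 14, 15 and 16) had thyroid hormone (TH) injected into the abdomen 24 h before brain collection. Each library comes from the sorted nuclei of the cortex of 1 mouse, with 4 libraries in each group. The labels give no strain, sex, litter, exact age or Cre driver, and no group with normal thyroid hormone was analysed here.

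mTOR is a protein kinase that matches cell growth to nutrients, energy and growth factors. In mTORC1 it works with raptor (Rptor) and drives protein synthesis while holding back autophagy and lysosome production. In mTORC2 it works with rictor (Rictor) and Sin1 (Mapkap1) and phosphorylates kinases such as Akt and protein kinase C. Deptor binds mTOR in both complexes and inhibits it. In neurons the pathway is known for its part in soma size, dendrite growth and synaptic protein synthesis, and loss of Tsc1 or Tsc2, the brake on mTORC1, causes tuberous sclerosis. Thyroid hormone acts mainly through nuclear receptors that change transcription.

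Library totals lay between 21.8 and 29.1 M counts. The known TH-induced genes were checked first: 7 of 9 tested were called (edgeR adjusted p under 0.05) higher in PTU+TH, beside 1.49% of all genes tested, and 0 lower, and Hr, a corepressor gene, stood at 1.80 ± 0.53 CPM without TH and 26.6 ± 1.62 CPM with TH (± SD, n = 4 per group). That list was compiled from general knowledge and earlier results of these data, so its count is not independent evidence. CPM is the count scaled to the size of its library. Of 40 tested markers of 7 cell types, GABAergic neurons included, 0 were called by edgeR (2.12% of all genes tested were) and 0 by DESeq2 (4.63% of all genes that it gave an adjusted p), with 2 at an unadjusted p under 0.05, and the groups overlapped in the sum of each list. The 2 markers at that p were C1qa of microglia and Mobp of oligodendrocytes (log2 fold changes 1.09 and 1.30, edgeR adjusted p = 0.247 and 0.364). Of the tested microglia markers 5 of 5 had positive estimates, with a median of 0.63, and of the oligodendrocyte markers 5 of 6, with a median of 0.47, beside -0.01 over all genes; their part in the results was not tested. The sum of the microglia markers ranged from 10.0 to 15.2 CPM in PTU and from 13.7 to 30.4 CPM in PTU+TH. Dlx1, Dlx6, Gfap and P2ry12 lie inside other genes and were at 0. The summed level of 8 excitatory neuron genes ranged from 276.9 to 319.5 CPM in PTU and from 247.4 to 330.7 CPM in PTU+TH, and that of 8 GABAergic genes from 2242 to 2686 and from 2125 to 2325 CPM. Mouse 15 had the highest sums of the PTU+TH group for astrocytes (366.4 CPM) and oligodendrocytes (192.7 CPM). The same held for oligodendrocyte precursors (33.0 CPM), microglia (30.4 CPM) and endothelium (117 CPM). Mice 15 and 16 had no counts of 4 Y-linked genes, while the other 6 libraries had 7960 to 11548. By these counts mice 15 and 16 were female and all PTU mice male, so sex was partly confounded with TH.

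Deptor was 2.96-fold higher in the mice given TH. It had 200, 286, 159 and 196 counts in PTU mice 9, 10, 11 and 12, and 578, 679, 608 and 562 counts in PTU+TH mice 13, 14, 15 and 16. Values of single libraries are given in this order of mice throughout, and the PTU and PTU+TH groups are also called mice without TH and mice with TH. After scaling, Deptor was at 7.29, 10.8, 7.87 and 8.57 CPM without TH and at 24.4, 23.3, 27.6 and 26.7 CPM with TH. Every PTU+TH library lay above every PTU library, and the lowest PTU+TH value (mouse 14) was 2.17 times the highest PTU value (mouse 10). The mean went from 8.62 ± 1.52 to 25.5 ± 2.00 CPM (± SD, n = 4 per group), a log2 fold change of 1.56 (SE 0.14).

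Deptor lies on mouse chromosome 15, from 55112317 to 55259271 on the plus strand (GRCm38). Of its gene body 99.1% is free of other genes, with Gm9920 on the opposite strand as the one overlap, so few of its reads can belong to a neighbour. The spread between mice of the PTU group was wider (coefficient of variation 17.6%) than that of the PTU+TH group (7.83%), and mouse 10 was the highest of its group. Mouse 10 also had the highest endothelial sum of its group, 157.8 CPM against 33.6 to 54.8 in the other 3 libraries. Without mouse 10 the log2 fold change of Deptor was 1.69, and without mouse 15 it was 1.52. In the 6 libraries that had Y-linked counts it was 1.47. In bulk RNA from sorted nuclei, more Deptor per cell cannot be told apart from a larger share of cells that express it. The class markers Sst, Vip, Lamp5 and Pvalb, which were added after the values were seen, had log2 fold changes of -0.09, -0.29, -0.09 and 0.50, and none of these 4 was called (edgeR adjusted p = 0.85, 0.369, 0.958 and 0.629), with 1, Vip, at an unadjusted p under 0.05 (0.0446).

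**Figure D1:**
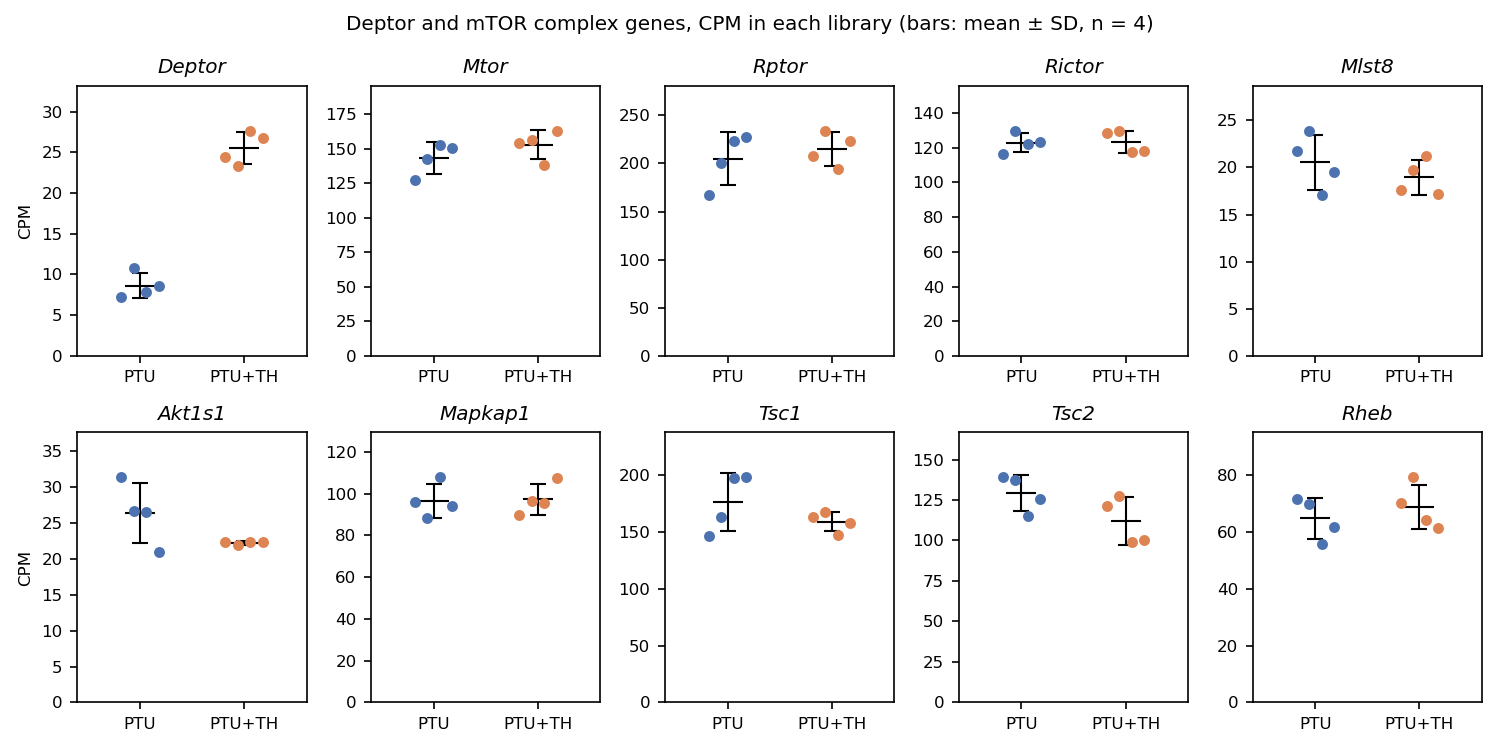
CPM of the 10 genes in each library, 1 panel per gene, with PTU in blue, PTU+TH in orange and black bars for the mean ± SD of 4 libraries; each vertical axis starts at 0. Deptor sits between 7.29 and 10.8 CPM in PTU and between 23.3 and 27.6 CPM in PTU+TH, while the groups overlap in each of the other 9 panels.

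The other 9 genes stayed within a narrow range. Their log2 fold changes ran from -0.25 (Akt1s1) to 0.10 (Mtor), with a median of 0.01 against -0.01 over all 17355 genes tested, and 5 of the 9 estimates were positive. The 2 groups did not overlap in CPM for Deptor alone among the 10, against 8.71% of all genes tested. Nothing is read from this share, since the set was chosen with this contrast in view.

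Mtor encodes the kinase itself and is shared by both complexes. It lies on chromosome 4, from 148448611 to 148557683. It stood at 127, 143, 153 and 151 CPM without TH and at 155, 157, 139 and 163 CPM with TH. The PTU+TH mean was 153 ± 10.4 CPM against 143 ± 11.6 CPM (± SD, n = 4 per group), with a log2 fold change of 0.10 (SE 0.09). The groups overlapped, with mouse 15 below 3 of the 4 PTU libraries. Mlst8, whose product binds the kinase domain in both complexes, was measured less deeply, with 344 to 634 counts per library. It stood at 21.8, 23.9, 17.0 and 19.5 CPM without TH and at 17.6, 19.8, 21.2 and 17.2 CPM with TH. Both groups held high and low libraries, and the log2 fold change was -0.12 (SE 0.13). Part of Mlst8 is shared with Bricd5 (71.3% of the body is free), which makes its counts less certain than those of the rest.

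Rptor encodes the subunit that recruits the substrates of mTORC1. It stood at 167, 201, 224 and 227 CPM without TH and at 208, 234, 194 and 224 CPM with TH. Mouse 9 was the lowest library and the other 7 overlapped, with a log2 fold change of 0.07 (SE 0.11). Akt1s1 encodes PRAS40, which inhibits mTORC1 and is itself phosphorylated by Akt and mTORC1. It stood at 31.4, 26.7, 26.5 and 21.0 CPM without TH and at 22.4, 21.9, 22.4 and 22.4 CPM with TH. The 4 PTU+TH libraries were close together and lay below 3 of the PTU libraries but above mouse 12. Its log2 fold change of -0.25 (SE 0.12) was the most negative of the 10. Deptor and Akt1s1, the inhibitors that sit inside mTORC1, thus had estimates of opposite sign.

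Rictor, the subunit that defines mTORC2, varied least between mice of the PTU group. It stood at 116, 130, 122 and 123 CPM without TH and at 128, 130, 118 and 118 CPM with TH. The means of 123 ± 5.51 and 123 ± 6.48 CPM (± SD, n = 4 per group) gave a log2 fold change of 0.01 (SE 0.08). Mapkap1 encodes Sin1, which positions mTORC2 and its substrates. It stood at 96.2, 88.3, 108 and 94.0 CPM without TH and at 89.6, 96.3, 95.5 and 107.5 CPM with TH. Each group had 1 library near 108 CPM and 1 near 89 CPM, and the log2 fold change was 0.01 (SE 0.09).

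Upstream of mTORC1, Tsc1 and Tsc2 encode the 2 main subunits of the complex that switches off Rheb, the small GTPase that activates mTORC1. Tsc1 stood at 147, 164, 198 and 198 CPM without TH and at 163, 168, 148 and 158 CPM with TH. PTU mice 11 and 12 were higher than all the other 6 libraries, which overlapped, and the log2 fold change was -0.15 (SE 0.11). Tsc2 stood at 139, 137, 115 and 125 CPM without TH and at 121, 128, 98.8 and 100.5 CPM with TH. Mice 15 and 16 were the lowest and mice 9 and 10 the highest, with a log2 fold change of -0.20 (SE 0.11). In the 6 libraries that had Y-linked counts, which leave out mice 15 and 16, the log2 fold change of Tsc2 was -0.05. Rheb stood at 71.7, 69.9, 55.9 and 61.8 CPM without TH and at 70.2, 79.2, 64.2 and 61.6 CPM with TH. Mice 9, 10, 13 and 14 were higher than the other 4, so each group held both levels, and the log2 fold change was 0.09 (SE 0.11).

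**Figure D2:**
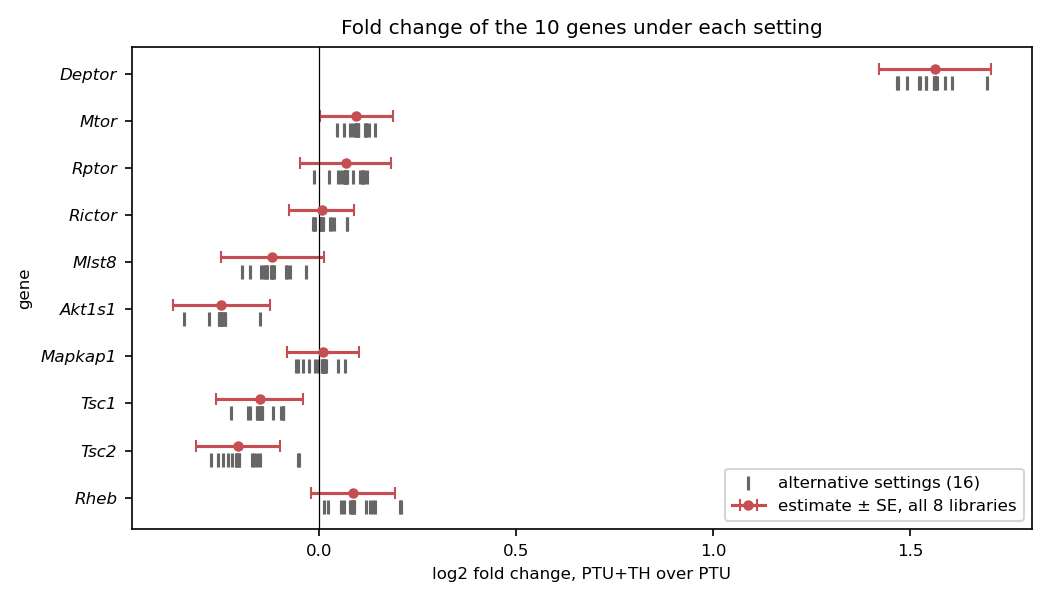
Log2 fold change of PTU+TH over PTU for the 10 genes, with red points for the estimate from all 8 libraries, red bars for its SE and grey ticks for 16 alternative settings (other scaling, tools, filters and left-out libraries). Deptor stays between 1.47 and 1.69, and no estimate of the other 9 genes goes above 0.21 or below -0.34.

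The log2 fold change of Deptor was between 1.47 and 1.69 under 16 alternatives, which include leaving out each library in turn. For Akt1s1 the range was -0.34 to -0.15, for Tsc2 -0.27 to -0.05 and for Tsc1 -0.22 to -0.09, all negative. Mtor, from 0.05 to 0.14, and Rheb, from 0.01 to 0.21, kept positive estimates, and Mlst8 kept negative ones, from -0.20 to -0.03. The estimates of Mapkap1, Rictor and Rptor changed sign in some settings, with 10, 12 and 15 of 16 positive.

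Per length, Deptor was the scarcest of the 10 transcripts in both groups. In CPM it was the lowest in PTU only. In PTU+TH, Mlst8 (18.9 CPM) and Akt1s1 (22.3 CPM) had lower means than Deptor (25.5 CPM). Genes of other lengths can be compared only per length. All 680 protein-coding genes that lie wholly within introns of another gene were at 0 in every library, so counts were read as covering whole gene bodies, and the level was taken per kb of gene body free of other genes. On that scale Deptor stood at 0.0592 ± 0.0104 CPM per kb in PTU and at 0.175 ± 0.0137 CPM per kb in PTU+TH (± SD, n = 4 per group). Mapkap1, the next lowest, stood at 0.445 ± 0.0376 and 0.449 ± 0.0344 CPM per kb. The gap between them was thus 7.52-fold in PTU and 2.56-fold in PTU+TH, and no library of Deptor reached any library of Mapkap1.

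Above them came Rptor at 0.725 ± 0.0979 CPM per kb in PTU, then Rictor at 1.33 ± 0.0599, Mtor at 1.38 ± 0.112 and Rheb at 1.64 ± 0.186 CPM per kb (± SD, n = 4 per group). The libraries of Rictor overlapped those of Mtor, and those of Mtor overlapped those of Rheb. The genes were not compared within each mouse. Tsc1 at 3.53 ± 0.512, Tsc2 at 3.58 ± 0.306, Akt1s1 at 4.21 ± 0.674 and Mlst8 at 5.21 ± 0.747 CPM per kb in PTU formed the upper end, again with each overlapping the next. In PTU+TH the libraries of Mlst8 were clear of those of Akt1s1, and those of Akt1s1 were clear of those of Tsc1. Mlst8 and Akt1s1 have the shortest bodies of the 10, 5.53 and 6.43 kb, and Rptor and Mapkap1 the longest, 296.7 and 218.2 kb, so on this scale the order partly follows gene length. Per kb of exon the order of the others changed, with Mapkap1 first at 23.8 ± 2.01 CPM per kb in PTU, but Deptor was again last at 0.972 ± 0.171 in PTU and 2.88 ± 0.225 CPM per kb in PTU+TH. Mlst8 was then the next lowest, 4.76-fold above Deptor in PTU and 1.48-fold in PTU+TH.

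**Figure D3:**
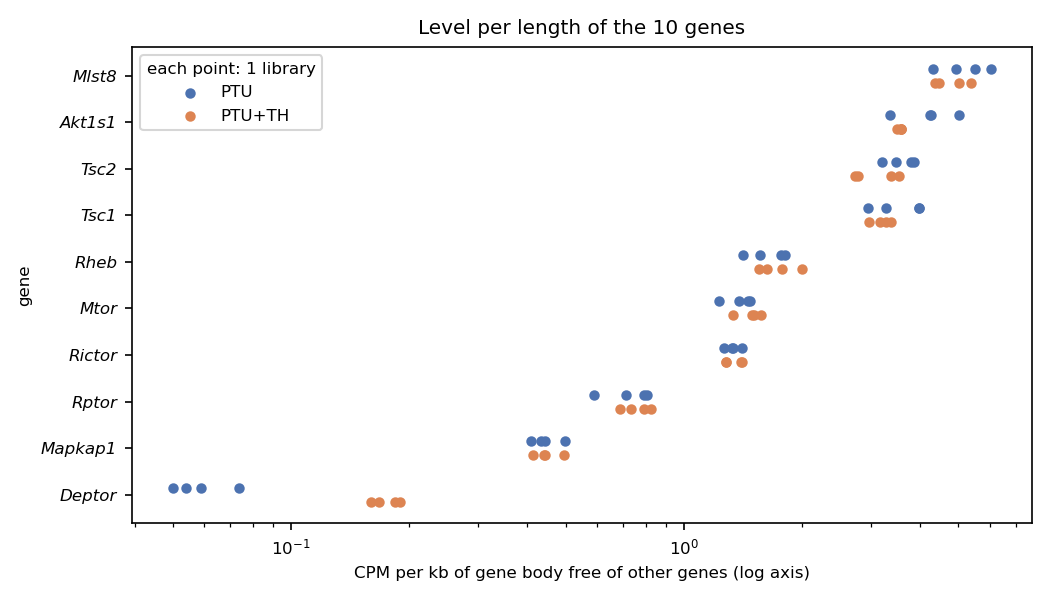
Level of the 10 genes in CPM per kb of gene body free of other genes, on a log axis, with 1 point per library (blue PTU, orange PTU+TH). Deptor lies lowest in both groups, at means of 0.0592 and 0.175 CPM per kb, and is the one gene whose blue and orange points are apart.

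Genes of the wider pathway that were not part of the set were then counted from 6 lists drawn from general knowledge. Of 94 genes tested, 2 were called and both rose in PTU+TH: Tfeb among the mTORC1 targets and Prkcb among the mTORC2 targets. That is 2.13%, beside the 2.12% of all genes tested that were called, with 1.49% called higher. Over the 6 lists 45 estimates were positive and 49 negative, with a median log2 fold change of -0.01, as over all genes. The groups did not overlap for 7 of the 94 genes (7.45%, beside 8.71% of all genes tested). Both shares were close to those of all genes. An unadjusted p under 0.05 was found for 13 of the 94 genes, a count with no share over all genes beside it here.

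Among the mTORC1 targets 1 of 22 tested genes was called higher and 0 lower (4.55% called, beside 2.12% of all genes tested). The median log2 fold change was -0.02. At an unadjusted p under 0.05 were 3 genes, Tfeb, Mitf and Eef2, the last at a log2 fold change of 0.30 (edgeR adjusted p = 0.131). Tfeb encodes a transcription factor for lysosomal and autophagy genes that mTORC1 keeps in the cytosol by phosphorylation. It lies on chromosome 17, from 47737030 to 47792419, with no overlapping gene. It had 96, 141, 90 and 65 counts without TH and 170, 229, 211 and 200 with TH. In CPM these are 3.50, 5.31, 4.45 and 2.84 without TH, and 7.17, 7.87, 9.59 and 9.52 with TH, so every PTU+TH library was above every PTU library. The mean rose from 4.02 ± 1.08 to 8.54 ± 1.21 CPM (± SD, n = 4 per group), with a log2 fold change of 1.08 (SE 0.21) and an edgeR adjusted p of 0.0182.

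The call of Tfeb was lost without mouse 15 (edgeR adjusted p = 0.075), without mouse 16 (0.0696), with a Y-linked covariate (0.181) and in the 6 libraries that had Y-linked counts (0.308), where the log2 fold change was 0.90. It was 1.02 without mouse 15, 1.03 without mouse 16 and 0.90 with the covariate. Beside it, all 6 oligodendrocyte markers were detected, and their sum ranged from 96.2 to 123.2 CPM in PTU and from 94.2 to 192.7 CPM in PTU+TH. The part of these cells in the result was not tested. Its relatives Mitf and Tfe3 had log2 fold changes of 0.56 and -0.07 and were not called (edgeR adjusted p = 0.278 and 0.854). Transcripts of 3 main mTORC1 substrates, whose phosphorylation was not measured here, were not called either. Rps6kb1, the S6 kinase, had a log2 fold change of 0.08, Eif4ebp1, a brake on translation, -0.15, and Ulk1, which starts autophagy, -0.06 (edgeR adjusted p = 0.788, 0.948 and 0.846). Eif4ebp1 was near the floor, at means of 1.52 CPM without TH and 1.38 CPM with TH (SE of the log2 fold change 0.42). Its paralog Eif4ebp2, at 31.8 and 29.7 CPM, had a log2 fold change of -0.10 (edgeR adjusted p = 0.787).

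Among the mTORC2 targets 1 of 9 tested genes was called higher and 0 lower (11.1% called, beside 2.12% of all genes tested). The median log2 fold change was 0.05. At an unadjusted p under 0.05 were 4 genes, Prkcb, Sgk1, Ndrg1 and Foxo1, the last at a log2 fold change of 0.47 (edgeR adjusted p = 0.141). Prkcb, a conventional protein kinase C, stood at 275, 296, 327 and 306 CPM without TH and at 394, 419, 461 and 465 CPM with TH. All 4 PTU+TH libraries lay above the PTU libraries, and the mean rose from 301 ± 21.7 to 435 ± 34.1 CPM (± SD, n = 4 per group), with a log2 fold change of 0.53 (SE 0.11) and an edgeR adjusted p of 0.0254. The call was lost under 7 of 16 alternatives. These were the fits without mice 10 (edgeR adjusted p = 0.0771), 12 (0.0698), 14 (0.0596), 15 (0.095) and 16 (0.0864), with a Y-linked covariate (0.198) and in the 6 libraries that had Y-linked counts (0.318). In these 7 fits the log2 fold change lay between 0.43 and 0.55. The other kinase C genes of the list, Prkca and Prkce, were not called (log2 fold changes -0.13 and 0.04, edgeR adjusted p = 0.874 and 0.97).

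The groups were also apart for Sgk1 and Ndrg1, which are named after their values were seen and with Prkcb make 33.3% of the list (beside 8.71% of all genes tested). Sgk1, a kinase that mTORC2 activates, stood at 148, 158, 170 and 181 CPM without TH and at 198, 204, 199 and 228 CPM with TH (log2 fold change 0.34, edgeR adjusted p = 0.111). Ndrg1, a known target of Sgk1, stood at 7.61, 8.66, 8.21 and 8.57 CPM without TH and at 5.02, 6.67, 3.27 and 2.71 CPM with TH, lowest in mice 15 and 16 (log2 fold change -0.89, edgeR adjusted p = 0.094). Neither passed the edgeR test over all 8 libraries, while DESeq2 called both (adjusted p = 0.0235 and 0.016). edgeR called Ndrg1 lower without mouse 14 (log2 fold change -1.16, adjusted p = 0.0333) and with no filter beyond 1 count (-0.89, adjusted p = 0.0486).

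**Figure D4:**
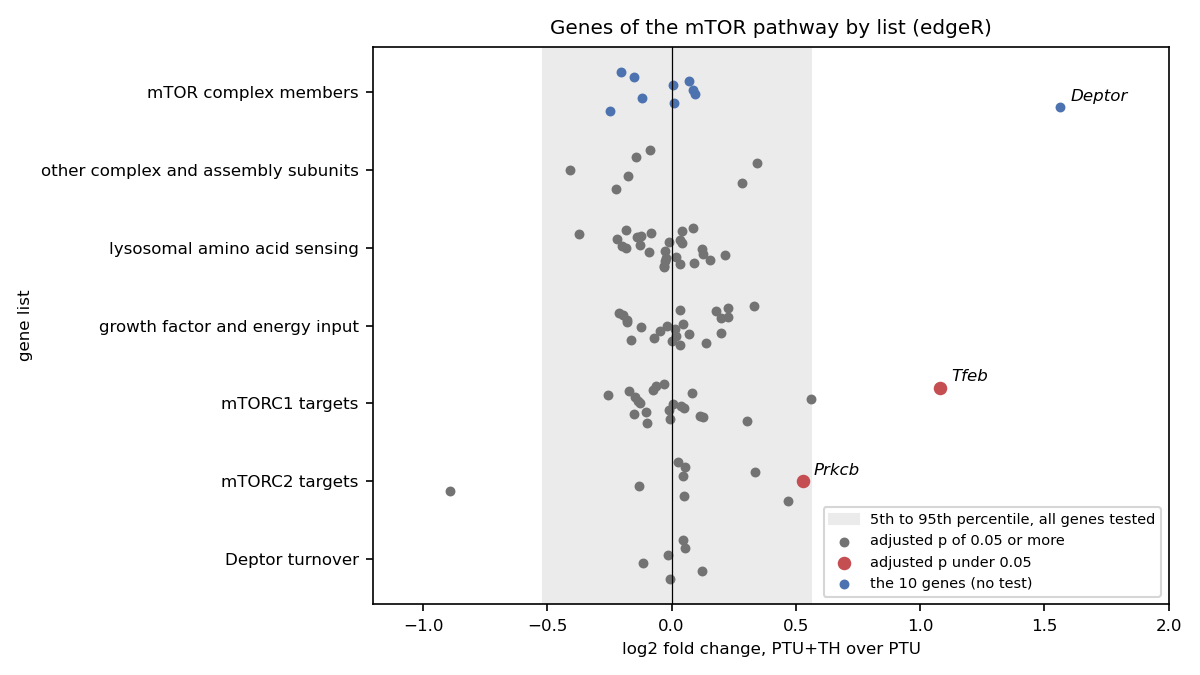
Log2 fold change of PTU+TH over PTU for each tested gene of the 10-gene set and of 6 pathway lists, with the 10 genes in blue, called genes of the lists in red and the 5th to 95th percentile of all tested genes (-0.52 to 0.56) as a grey band. Tfeb and Prkcb are the 2 red points, and Deptor lies farthest to the right.

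Other complex and assembly subunits had 0 of 7 tested genes called by edgeR, beside 2.12% of all genes tested. An unadjusted p under 0.05 was found for 2 of the 7, and DESeq2 called 2, beside 4.63% of all genes. Telo2, part of the chaperone complex that stabilises mTOR and related kinases, stood at 88.7 ± 5.76 CPM without TH and 113 ± 10.2 CPM with TH (± SD, n = 4 per group), with an edgeR adjusted p of 0.0761. Tbc1d7, the third subunit of the TSC complex, stood at 21.5 ± 1.45 and 16.2 ± 1.54 CPM (± SD, n = 4 per group), with an edgeR adjusted p of 0.101. The 2 groups did not overlap for either gene (28.6% of the list, beside 8.71% of all genes tested), and DESeq2 gave adjusted p = 0.0189 for Telo2 and 0.0225 for Tbc1d7. The paralog of Rheb, Rhebl1, and the mTORC2 subunit Prr5 were at log2 fold changes of -0.18 and -0.22, not called (edgeR adjusted p = 0.511 and 0.605).

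**Figure D5:**
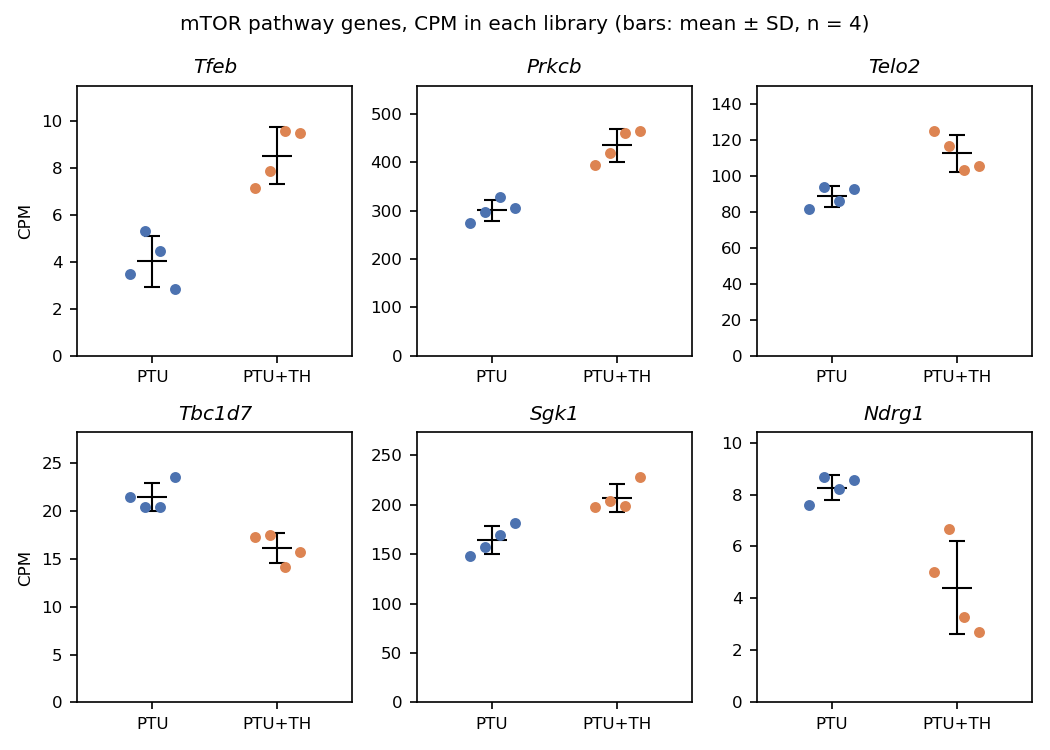
CPM in each library for 6 mTOR pathway genes, with PTU in blue, PTU+TH in orange and black bars for the mean ± SD of 4 libraries; each vertical axis starts at 0. The groups are apart in all 6 panels, which were picked for that, with Tfeb at means of 4.02 and 8.54 CPM and Ndrg1 at 8.26 and 4.42 CPM. Stk11, for which the groups were also apart, is not drawn.

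The lysosomal amino acid sensing genes were those of Rag GTPases, Ragulator, folliculin, GATOR, KICSTOR, sestrins and Castor. Of 27 tested, 0 were called by edgeR and 0 by DESeq2, beside 2.12% and 4.63% of all genes. An unadjusted p under 0.05 was found for 1 of the 27. Their log2 fold changes ran from -0.37 for Sesn2, a leucine sensor, to 0.22 for Lamtor1, a Ragulator subunit, with a median of -0.03 (edgeR adjusted p = 0.277 and 0.546). Other genes overlap most of Lamtor1 (31.9% free). Depdc5, a GATOR1 subunit tied to focal epilepsy, had a log2 fold change of 0.03 (edgeR adjusted p = 0.966). Wdr24 and Seh1l lie wholly inside other genes and were listed at 0.

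The growth factor and energy input genes (among them phosphoinositide 3-kinase, Redd1 and AMPK) had 0 of 23 tested genes called by edgeR and 0 by DESeq2. Over all genes the shares called were 2.12% and 4.63%. Of the 23 genes 3 had an unadjusted p under 0.05, and the median log2 fold change was 0.02. The extremes were Stk11, the kinase upstream of AMPK, at 0.33 and Prkab2, an AMPK subunit, at -0.21 (edgeR adjusted p = 0.316 and 0.418). The 2 groups did not overlap in CPM for Stk11 alone (4.35% of the list, beside 8.71% of all genes tested).

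Deptor protein is removed after phosphorylation by casein kinase 1 and ubiquitination by the SCF ligase with beta-TrCP, and the enzyme Otub1 reverses that step. Of 6 tested genes of this machinery 0 were called by edgeR, 0 by DESeq2 and 0 had an unadjusted p under 0.05. Since edgeR called 2.12% and DESeq2 4.63% of all genes, 0 calls among 6 genes says little. The log2 fold changes ran from -0.12 for Cul1, the ligase scaffold, to 0.12 for Csnk1a1, the kinase (edgeR adjusted p = 0.747 and 0.691). Btrc and Fbxw11, the beta-TrCP genes, were both at -0.01 and Otub1 at 0.05. Skp1a, which another gene wholly covers, was listed at 0.

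The genes whose pattern was most like that of Deptor were sought among 10546 genes whose mean level reached 5 CPM. Over the 8 libraries the highest Pearson r of log2 CPM with Deptor were those of Rgcc (0.988), Rin2 (0.986), Vegfc (0.984), Abca7 (0.984) and Prkcq (0.983). Each of these 5 genes was higher in PTU+TH, as the choice by likeness to Deptor fixes, and the 8 points share the difference between the groups. Rgcc, a regulator of the cell cycle, stood at 7.57 ± 1.30 CPM without TH and 27.5 ± 5.42 CPM with TH. Prkcq, the theta isoform of protein kinase C, stood at 2.91 ± 0.18 and 8.52 ± 0.95 CPM (± SD, n = 4 per group). With the group means removed, the r of the same 5 genes with Deptor was 0.75, 0.91, 0.60, 0.71 and 0.48.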

How the data were processed

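The authors deposited 1 file of raw read counts per gene symbol for each library. Bowtie2 2.5.3 and the builds mm10 and GRCm38 are named in the submitters' processing notes. The counting program, annotation, strand setting and treatment of introns are not given in the sources used here. All 55341 symbols matched GENCODE M21 (GRCm38), which gave positions, lengths and overlaps. Groups came from the sample titles. The main test was that of edgeR 4.0.16, run in R 4.3.3 (filterByExpr, TMM scaling, robust quasi-likelihood test with the group as the only term), two-sided, adjusted by Benjamini-Hochberg over 17355 genes and called at an adjusted p under 0.05. SEs were derived from the F statistic. DESeq2 1.42.0, limma 3.58.1 (voom), other scaling and filters, a Y-linked covariate and left-out libraries were alternatives. The script was tested on simulated data. Log2 CPM for likeness used a prior count of 2.

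The members and lists were chosen with earlier results of these data known. Named were the 10 genes, called genes of the pathway lists, the extremes of lists without a call, the 5 genes most like Deptor by each measure, and further pathway genes picked with their values known. No sequence is printed. Totals of 21.8 to 29.1 M counts limit precision for genes at few CPM.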

Additional observations from a re-analysis of the deposited data

Results flagged for a closer look

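Among 24 sets of 4 libraries (the 10 genes, Tfeb and Prkcb in each group), 1 held a library far from the other 3, where chance alone gives about 5% of sets. Akt1s1 stood at 21.9 CPM in mouse 14 (PTU+TH), below the 22.4 CPM of each of the other 3 libraries of that group, a gap of 0.94 of the range of the 4. The whole range of the group is narrow, with a coefficient of variation of 1.09%.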

How the results depend on the processing

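No paired analysis was possible because no number is shared between mice of both groups. No log2 fold change of the 10 genes moved by as much as the spread between replicates under the 16 alternatives. The count over all genes, 368, was 756 with DESeq2, 128 with a Y-linked covariate and 58 in the 6 libraries that had Y-linked counts, and lay between 182 (without mouse 15) and 499 (without mouse 9) when a library was left out. It was 227, 233, 238 and 209 without mice 14, 12, 13 and 16. The 6 libraries hold fewer mice, and for DESeq2 and the covariate the cause was not tested. Called mTORC1 targets numbered 0 with the Y-linked covariate and 0 in the 6 libraries, and 0 to 2 with a library left out (Eef2 was added without mouse 9). Called mTORC2 targets numbered 3 with DESeq2, 2 with no filter beyond 1 count (Ndrg1 was added), 0 with the Y-linked covariate and 0 in the 6 libraries, and 0 to 1 with a library left out (without mouse 14 the 1 gene was Ndrg1, lower, and not Prkcb). Called other complex and assembly subunits numbered 2 with DESeq2. The lists of lysosomal sensing, growth factor input and Deptor turnover had 0 calls under all 16 alternatives. Tfeb and Prkcb kept a positive estimate under all 16.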

Other observations

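With the group means removed, the 5 genes whose deviations were most like those of Deptor over the 8 libraries were Arsk (r = 0.96), Pak2 (0.96), Mrc2 (0.95), Traf2 (0.95) and Acp6 (0.91), out of 10546 genes compared. None of these 5 was called (edgeR adjusted p = 0.811, 0.647, 0.837, 0.907 and 0.161). Pak2, a kinase of the cytoskeleton, was measured at 47.1 ± 3.48 CPM without TH and 43.2 ± 1.25 CPM with TH, and Acp6, a mitochondrial lipid phosphatase, at 36.7 ± 6.26 and 47.3 ± 2.16 CPM (± SD, n = 4 per group). They were the highest of many genes compared over few libraries, which share library and depth with Deptor.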
